A study of Mus musculus with 6 samples.

Results

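The 40 genes described here make up the machinery with which a cell builds cholesterol and fatty acids. They comprise the SREBP system and its sensors, the enzymes of both pathways, the desaturases and elongases, and the genes of sterol efflux. They were taken by gene name from a list, and all 40 were present among the 21362 genes of the deposited tables. Expression was measured by RNA sequencing of bulk RNA in 6 mouse libraries labelled as CD4+ T cells, the helper and regulatory branch of T lymphocytes. The series concerns sorafenib, an oral inhibitor of several kinases, and sets treated regulatory T cells against cells without it, but which of the libraries received it is not in the labels. They give no strain, age, dose or time either, and no word on whether separate animals or cultures were used. The 6 libraries were therefore left ungrouped. They are named by the running number of their titles, and 6 values in a row run from library 1 to library 6. What follows describes how the genes stood and varied over the 6 libraries, with no test between treated and untreated cells.

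Cells make cholesterol from acetyl-CoA through mevalonate and squalene, and fatty acids from the same precursor through malonyl-CoA. Both routes are switched on by the SREBP transcription factors, which lie in the membrane of the endoplasmic reticulum and are carried by Scap to the Golgi, where proteases free them, unless Insig proteins hold them back when sterol is plentiful. The liver X receptors respond to oxysterols and raise the genes of sterol efflux. In T cells these routes are known for supplying membrane when resting cells are activated and divide, and SREBP activity is known to be needed for clonal expansion.

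Library totals lay between 32435799 and 36316162 counts, so that a floor of 3 counts stood for 0.0791 to 0.0966 CPM. CPM means counts-per-million of the TMM-scaled library total, and 95% intervals cover counting error only. The 8 T cell markers Cd3e, Cd3d, Cd3g, Cd4, Cd28, Cd5, Cd2 and Lck summed to 2466 to 3042 CPM over the libraries. Of cells known for making much lipid, the adipocyte markers Adipoq and Plin1 summed to 0 to 0.116 CPM and the hepatocyte markers Afp and Apoa1 to 0.405 to 1.58 CPM. The CD8 T cell markers Cd8a and Cd8b1 summed to 8.52 to 10.1 CPM, the B cell markers to 4.86 to 8.17 CPM, the macrophage and dendritic cell markers to 10.3 to 14.2 CPM and the NK cell markers to 0.0287 to 0.105 CPM. Single genes made up most of 2 of these sums. Cd8b1 lay between 8.15 and 9.57 CPM but Cd8a between 0.231 and 0.661 CPM. Cd68, at 8.68 to 12.1 CPM, made up most of the macrophage and dendritic cell sum. Lyz2 was at 0 in library 1, Csf1r in library 2, Ncr1 in libraries 1, 3, 4 and 5, and Plin1 in each library but library 5. In bulk RNA, fewer cells of a type and less RNA per cell cannot be told apart.

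The lipid synthesis genes were expressed throughout, and 1 of them far exceeded the rest. Every member reached a mean of 1 CPM, and the lowest count of any member in any library was 36. Together they took 0.392% to 0.428% of all counts. Scd2, a stearoyl-CoA desaturase that turns saturated into monounsaturated fatty acids, accounted for 42.7% to 48.3% of the members' summed FPKM, the deposited measure of reads per length of gene, on which levels of different genes were compared. Among all genes it ranked between place 146 and place 154 by FPKM. On that scale Scd2 ranged over the libraries from 353 to 422 FPKM, ahead of Srebf2 at 36.3 to 42.3, Fdps at 27.2 to 33.3, Nr1h2 at 26.7 to 33.7, Elovl5 at 25.2 to 32.2 and Acly at 25.8 to 29.3 FPKM. The ranges of Fdps, Nr1h2, Elovl5 and Acly overlap. Compared within each library, Fdps exceeded Acly in all 6, as at 30.4 against 27.8 FPKM in library 1 and 27.2 against 25.8 FPKM in library 4. The order of the other pairs among these neighbours changed between libraries. At the other end stood Fads2 at 1.29 to 3.46, Scd1 at 1.20 to 1.87, Abca1 at 1.01 to 1.73 and Me1 at 0.296 to 1.04 FPKM. FPKM depends on the length assigned to a gene, which was 10420 bases for Fdft1 and 1461 bases for Fdps as counts and FPKM imply, and the annotation behind it is not given in the sources used here.

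**Figure D1:**
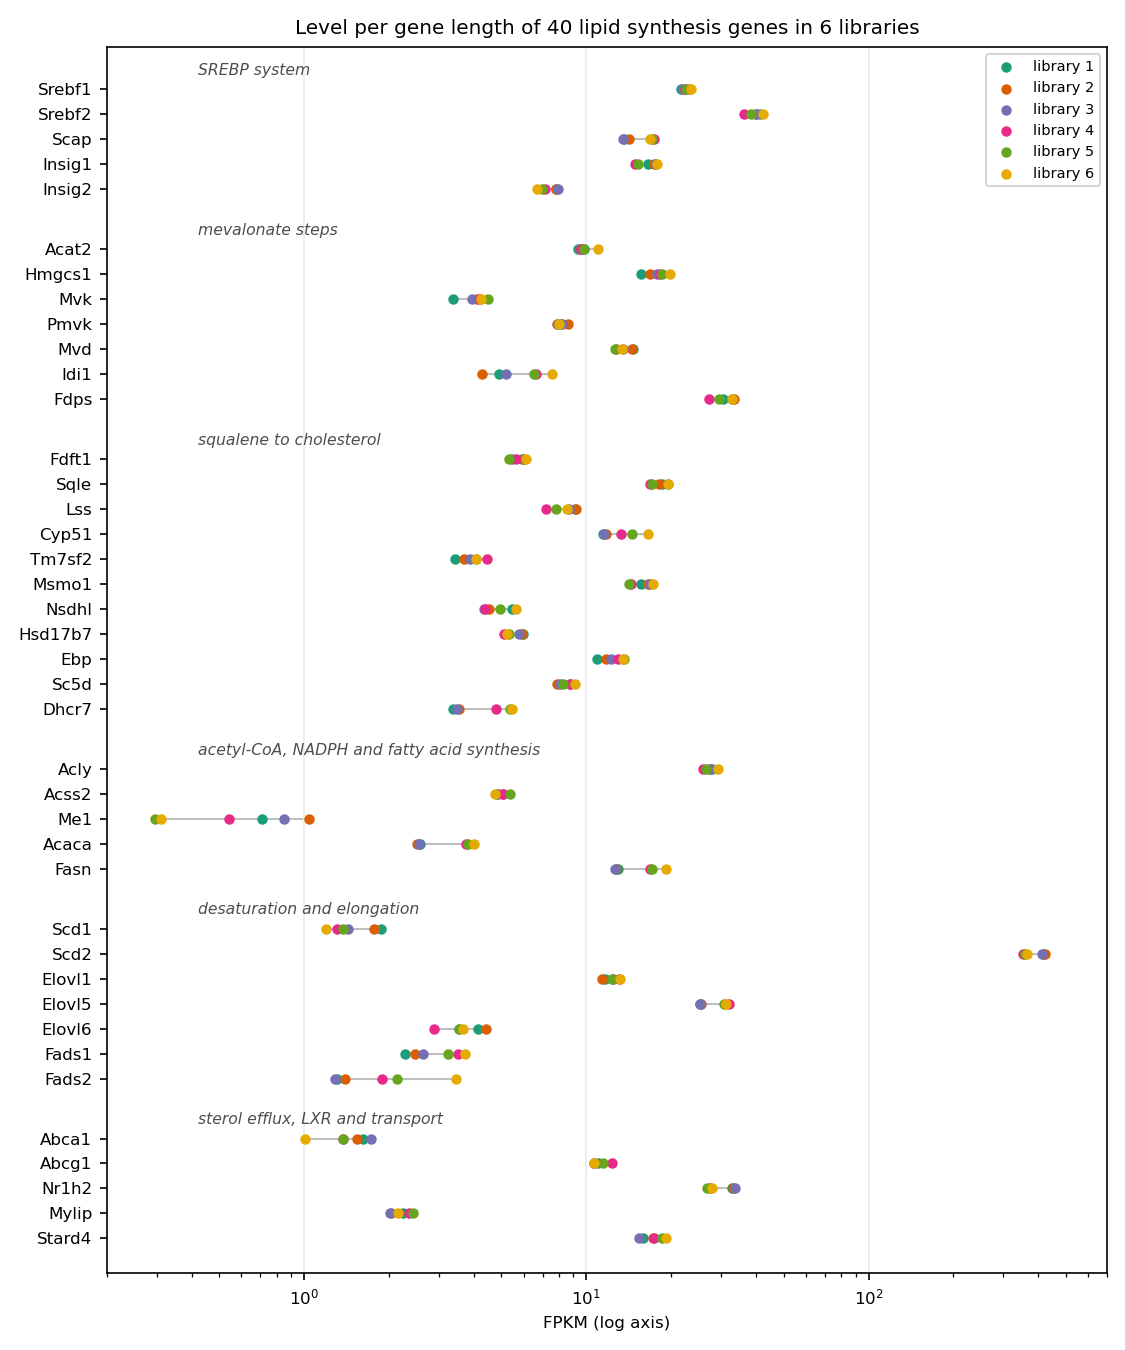
FPKM (log axis) of each of the 40 genes, in order of role, with 1 point per library and a grey line over its range. Scd2 stands alone at 353 to 422 FPKM, and Me1 at the low end has the widest spread, 0.296 to 1.04 FPKM.

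Over the 6 libraries the genes varied about as much as other genes. Range here means the highest library over the lowest, taken on the log2 scale with a prior count of 2. The median range of the members was 1.27-fold, beside 1.29-fold over all 11516 genes that averaged 1 CPM or more. A 2-fold range or wider was seen in 2 of the 40 members, Me1 and Fads2, or 5.0%, against 10.5% of all those genes. A 1.5-fold range or wider was seen in 8 members, or 20.0%, against 27.6%. Low genes range more widely, so the abundant genes were also set apart. Among the 34 members averaging 10 CPM or more, 0 reached 2-fold, against 3.33% of the 8371 genes as abundant, and 5, or 14.7%, reached 1.5-fold, against 13.5%. No test applies to these counts. The lowest and the highest library had separate 95% intervals for 34 of the 40 members, or 85.0%, the same share as the 85.0% of all genes. The members whose intervals met were Mvk, Tm7sf2, Ebp, Acss2, Elovl1 and Mylip. Fads2, at 2.49-fold, and Abca1, at 1.83-fold, lay next to the 2-fold mark on either side, while Dhcr7 lay just above and Acaca, at 1.47-fold, just below the 1.5-fold mark.

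**Figure D2:**
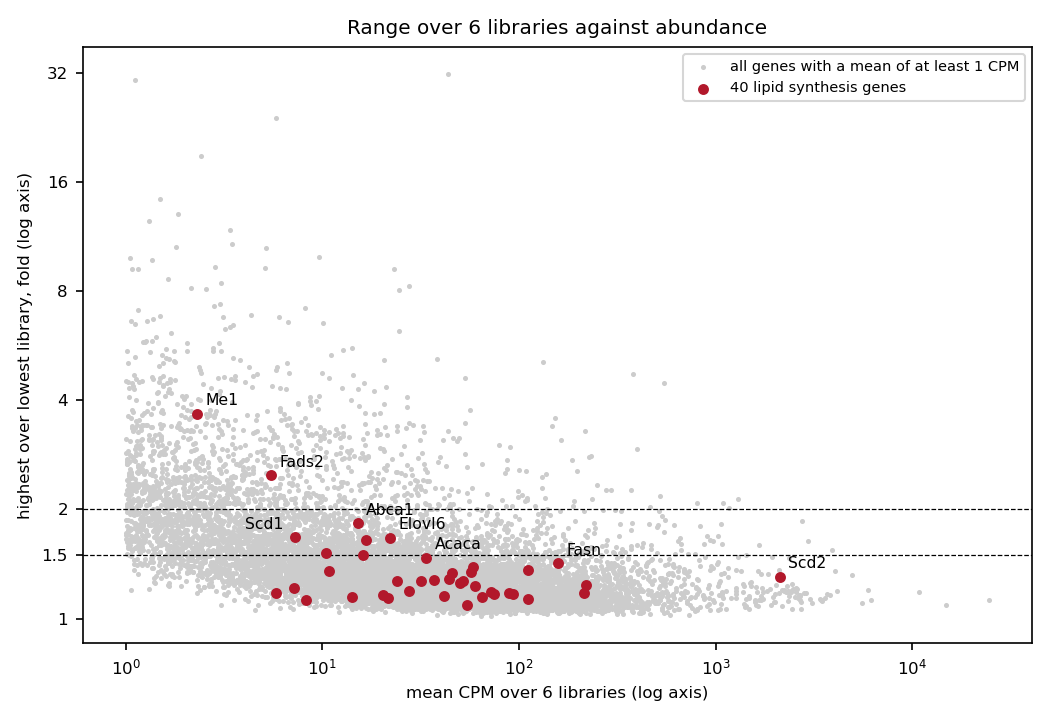
Range over the 6 libraries (fold, log axis) against mean CPM (log axis), with grey points for the 11516 genes that averaged 1 CPM or more, red points for the 40 lipid synthesis genes and dashed lines at 1.5-fold and 2-fold. Me1 and Fads2 lie above the upper line, and Scd2, at the right, ranged 1.30-fold.

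Sequences upstream of the start site are shown for the members with the widest ranges, Me1 and Fads2, and for 3 enzyme genes known as SREBP targets, Hmgcs1, Idi1 and Fasn, a choice made after their values were seen. RefSeq windows of assembly GRCm38.p6, matched by symbol, were found for 32 of the 40 genes. The 200 bases before the start are printed 5′ to 3′ on the gene's strand. Capitals mark, on either strand, the sterol regulatory element TCACNCCAC that SREBPs bind, the NF-Y box CCAAT, the Sp1 box GGGCGG and the E-box CACGTG.
Hmgcs1, chr13:119690151-119690350, plus strand: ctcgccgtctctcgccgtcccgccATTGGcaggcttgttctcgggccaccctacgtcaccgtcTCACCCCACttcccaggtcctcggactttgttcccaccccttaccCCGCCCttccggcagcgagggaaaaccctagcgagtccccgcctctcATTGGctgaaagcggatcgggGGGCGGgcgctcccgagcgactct
Idi1, chr13:8885406-8885605, plus strand: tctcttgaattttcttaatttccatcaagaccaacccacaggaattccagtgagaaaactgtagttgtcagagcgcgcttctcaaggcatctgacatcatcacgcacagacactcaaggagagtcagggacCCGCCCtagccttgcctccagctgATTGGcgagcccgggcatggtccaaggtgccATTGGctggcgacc
Fasn, chr11:120824548-120824747, minus strand: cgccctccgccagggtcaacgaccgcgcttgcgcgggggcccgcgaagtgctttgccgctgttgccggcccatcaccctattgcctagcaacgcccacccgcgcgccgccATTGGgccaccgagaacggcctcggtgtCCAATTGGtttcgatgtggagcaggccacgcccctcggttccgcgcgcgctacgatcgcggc
Fads2, chr19:10101504-10101703, minus strand: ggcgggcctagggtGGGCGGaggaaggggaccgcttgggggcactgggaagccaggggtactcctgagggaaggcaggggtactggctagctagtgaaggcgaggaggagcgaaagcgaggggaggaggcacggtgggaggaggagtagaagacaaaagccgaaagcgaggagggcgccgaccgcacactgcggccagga
Me1, chr9:86695915-86696114, minus strand: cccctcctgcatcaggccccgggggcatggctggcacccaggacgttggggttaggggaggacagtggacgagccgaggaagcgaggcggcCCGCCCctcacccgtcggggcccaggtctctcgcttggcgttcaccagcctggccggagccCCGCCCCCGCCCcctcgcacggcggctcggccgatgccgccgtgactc
The Hmgcs1 stretch held the 1 match to the sterol regulatory element, TCACCCCAC, together with 2 NF-Y boxes and 2 Sp1 boxes. The Idi1 stretch held 2 NF-Y boxes and the Fasn stretch 3, of which a pair on opposite strands overlap, while the Fads2 and Me1 stretches held 0. Me1 has another window, not printed here, which held 1 NF-Y box. Over the full windows of 300 bases, 1 of 42 member windows, or 2.38%, matched the sterol regulatory element, against 1.24% of all 32851 windows. The NF-Y box was in 26 member windows, or 61.9%, against 37.4% of all windows. The Sp1 box was in 31, or 73.8%, against 35.7%, and the E-box in 8, or 19.0%, against 7.15%. These are matches of letters in a short window and show neither binding nor its absence. The 42 member windows belong to 32 genes, so some genes count more than once. All windows were taken whether or not their gene was expressed in these libraries, while every member was.

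Of the 5 genes of the SREBP system 0 ranged 1.5-fold, against 27.6% of all genes and 13.5% of the abundant ones, and their median range of 1.24-fold was close to the 1.22-fold of abundant genes. Srebf2, the factor known chiefly for cholesterol genes, stood at 238, 231, 229.6, 192, 204 and 227 CPM. It was lowest in library 4 and highest in library 1, or in library 6 with plain total counts. Srebf1, the factor known chiefly for fatty acid genes, stood at 111, 119, 112, 105, 106 and 112 CPM, a range of 1.13-fold. Its extremes, libraries 4 and 2, became libraries 1 and 6 with plain totals, so its order over the libraries rests on the scaling. Scap, the escort of both factors, stood at 66.9, 69.4, 65.8, 78.1, 77.3 and 76.7 CPM, lowest in library 3 and highest in library 4. Insig1, a retention protein that is itself an SREBP target, stood at 45.8, 47.9, 48.3, 37.6, 38.7 and 45.7 CPM. It was lowest in library 4, with a 95% interval of 35.7 to 39.6 CPM, and highest in library 3, with 46.0 to 50.6 CPM, or in library 6 with plain totals. Insig2, the retention protein known to be less tied to SREBP activity, stood at 57.1, 56.9, 57.8, 47.9, 46.9 and 45.5 CPM, lowest in library 6 and highest in library 3, or in library 1 with DESeq2 size factors. All 5 had ranges between 1.13-fold and 1.28-fold. The median deviation of the 5 from each gene's own median was 0.00, 0.07, 0.01, -0.12, -0.15 and 0.00 log2 units in the 6 libraries, a spread of 0.222, which was 0.0962 without library 2 and 0.135 with plain totals.

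The 7 genes of the mevalonate steps summed to 212, 223, 224, 203, 209 and 227 CPM. Hmgcs1, the synthase of HMG-CoA whose promoter is shown above, stood at 68.8, 74.0, 77.4, 73.5, 75.1 and 80.6 CPM, lowest in library 1 and highest in library 6. Idi1, the isomerase that makes dimethylallyl diphosphate, was the most variable of these, at 14.7, 12.7, 15.4, 18.2, 17.9 and 21.0 CPM. Its library 2 had a 95% interval of 11.6 to 14.0 CPM and its library 6 one of 19.6 to 22.6 CPM, a range of 1.65-fold. Fdps, which makes farnesyl diphosphate for sterols and for protein prenylation, stood at 46.4, 50.8, 49.8, 38.1, 41.3 and 46.5 CPM, highest in library 2 and lowest in library 4. Library 2 was thus the lowest for Idi1 and the highest for Fdps, the enzyme that acts next. Counting error leaves both extremes unresolved, since for each gene the interval of library 2 met that of library 1. Acat2, the thiolase that joins acetyl-CoA units, ranged 1.16-fold. Pmvk, the phosphomevalonate kinase, ranged 1.19-fold, and Mvd, the decarboxylase that follows it, 1.27-fold. Mvk, the mevalonate kinase, lay between 6.28 and 7.65 CPM with intervals that met.

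The 11 genes that lead from farnesyl diphosphate to cholesterol summed to 405, 404, 395, 359, 368 and 412 CPM. Fdft1, the squalene synthase at the branch point to sterols, stood at 64.3, 65.5, 58.8, 56.2, 53.3 and 61.9 CPM, lowest in library 5 and highest in library 2, or in library 6 with plain totals. Sqle, the epoxidase of squalene and a rate-limiting step, stood at 53.3, 51.8, 55.2, 44.1, 45.0 and 51.6 CPM, lowest in library 4 and highest in library 3. Lss, the cyclase that closes the sterol rings, stood at 65.9, 66.4, 62.3, 47.8, 51.5 and 57.1 CPM and ranged 1.39-fold. Its lowest value was in library 4 and its highest in library 2, or in library 1 with DESeq2 size factors.

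Cyp51 and Dhcr7, further along the route, had their highest values in library 6. Cyp51, the demethylase of lanosterol, stood at 52.1, 53.3, 52.0, 55.1, 60.3 and 70.0 CPM, and its interval in library 6 was 67.2 to 72.8 CPM against 49.6 to 54.4 CPM in library 3, its lowest, which was library 1 with plain totals. Dhcr7, the reductase of the last step, stood at 13.2, 13.8, 13.5, 17.2, 19.2 and 19.8 CPM, lowest in library 1. The other 6 ranged less than 1.5-fold. Nsdhl, a sterol dehydrogenase, ranged 1.35-fold, Msmo1, the methyl oxidase, 1.28-fold, and Hsd17b7, a keto reductase, 1.27-fold. Sc5d, the desaturase of lathosterol, ranged 1.15-fold, Tm7sf2, a sterol reductase, 1.18-fold, and Ebp, the isomerase, 1.14-fold. Of all 18 sterol synthesis enzymes, each but Mvk and Tm7sf2 averaged 10 CPM or more. Across the 18, 0 ranged 2-fold, against 10.5% of all genes and 3.33% of those averaging 10 CPM or more. A range of 1.5-fold was reached by 2, Idi1 and Dhcr7, or 11.1%, against 27.6% and 13.5%, so near the share of the abundant genes. Dhcr7 lay under that mark with DESeq2 size factors, at 1.47-fold, and without library 1 or 6, at 1.46-fold and 1.45-fold, and Idi1 without library 2 or 6, at 1.43-fold and 1.43-fold. Their median deviation from each gene's own median was -0.01, 0.01, 0.04, -0.10, -0.07 and 0.03 log2 units in the 6 libraries.

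**Figure D3:**
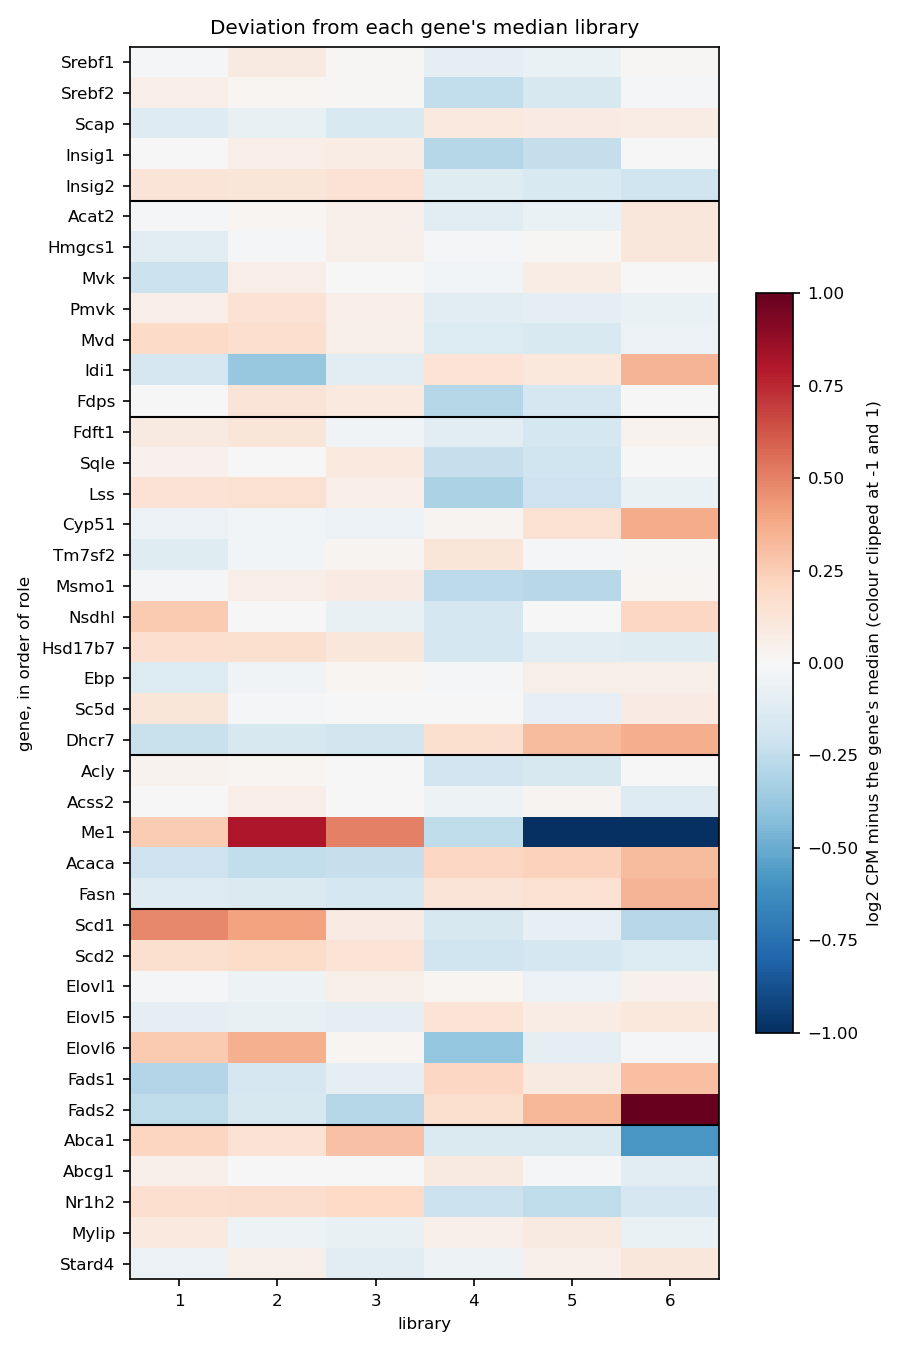
Deviation of log2 CPM from the gene's median over the 6 libraries (columns) for the 40 genes (rows, in order of role, with black lines between roles). Red is above and blue below the median, and the darkest cells are Me1 in libraries 5 and 6 and Fads2 in library 6.

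Genes that feed and build fatty acids differed in how widely they ranged. Acly, which makes cytosolic acetyl-CoA from citrate, stood at 228, 225, 222, 194, 199 and 222 CPM, a range of 1.17-fold with its lowest value in library 4 and its highest in library 1, or in library 6 with plain totals. Acaca, the acetyl-CoA carboxylase that commits carbon to fatty acids, stood at 28.7, 28.0, 28.3, 38.2, 38.9 and 41.2 CPM. Fasn, the fatty acid synthase, stood at 141, 139, 136, 168, 171 and 194 CPM. Both were highest in library 6, Acaca lowest in library 2 and Fasn in library 3, with ranges of 1.47-fold and 1.42-fold. With plain totals the ranges were 1.59-fold and 1.52-fold, past the 1.5-fold mark. Acss2, which makes acetyl-CoA from acetate, ranged 1.14-fold, with intervals that met.

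Me1, the cytosolic malic enzyme that yields NADPH for lipid synthesis, had the widest range of all members, 3.68-fold, at a low level of 2.70, 3.96, 3.21, 1.90, 1.03 and 1.10 CPM. Its counts were 84, 137, 112, 72, 36 and 39. The 95% interval of library 2, its highest, was 3.32 to 4.68 CPM, and that of library 5, its lowest, 0.725 to 1.43 CPM. Libraries 5 and 6 were both near 1 CPM, and libraries 1, 3 and 4 lay between. Me1 and Fasn, an NADPH source and an NADPH user, had their highest and lowest values in different libraries, but the intervals do not resolve this. For Me1 the interval of library 5 met that of library 6, where Fasn was highest. The Me1 interval of library 2 met that of library 3, where Fasn was lowest. For Fasn the interval of library 3 met that of library 2, where Me1 was highest. The 5 genes of this branch had a median deviation of 0.00, 0.02, 0.00, -0.05, 0.03 and 0.00 log2 units, a spread of 0.0792, which was 0.152 with plain totals and between 0.0232 and 0.0271 without library 1, 2, 3 or 4.

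Of the 7 desaturases and elongases 4 ranged 1.5-fold or more, Fads2, Scd1, Elovl6 and Fads1, or 57.1%, against the 27.6% of all genes. Scd2, described above, stood at 2364, 2402, 2321, 1842, 1876 and 1925 CPM, a range of 1.30-fold or 1.20-fold with plain totals. It was highest in library 2 and lowest in library 4. Scd1, the related desaturase that prevails in liver, stood at 9.43, 8.93, 7.17, 6.06, 6.38 and 5.60 CPM, highest in library 1 and lowest in library 6. Fads2, the first desaturase of polyunsaturated fatty acids, stood at 3.96, 4.22, 3.87, 5.27, 5.95 and 9.73 CPM. Library 6 had an interval of 8.73 to 10.8 CPM, which did not meet that of library 5, the next highest, at 5.17 to 6.82 CPM. Without library 6 its range was 1.53-fold. Fads1, the desaturase that acts after it, stood at 8.40, 9.16, 9.69, 11.9, 11.0 and 12.7 CPM and ranged 1.51-fold, or 1.48-fold with DESeq2 size factors, also highest in library 6.

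Elovl6, the elongase of palmitate, stood at 25.6, 27.5, 21.7, 16.4, 20.1 and 21.1 CPM, lowest in library 4, with an interval of 15.1 to 17.7 CPM, and highest in library 2, with 25.7 to 29.3 CPM. Without library 4 its range was 1.36-fold. Elovl5, the elongase of polyunsaturated chains, had the highest FPKM of the 3 elongases and ranged 1.18-fold, from 82.8 to 97.6 CPM. Elovl1, an elongase of very long saturated chains, had the narrowest range of the members, 1.09-fold, from 52.5 to 57.2 CPM, but ranged 1.15-fold with plain totals, where Srebf1 was the narrowest at 1.09-fold.

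Of the 5 genes of efflux and transport 1, Abca1, or 20.0%, ranged 1.5-fold or more, near the 27.6% of all genes. Abca1, the transporter that loads cholesterol onto apolipoproteins, stood at 17.6, 16.8, 18.6, 13.7, 13.7 and 10.2 CPM. It was lowest in library 6, with an interval of 9.13 to 11.3 CPM, and highest in library 3, with 17.2 to 20.1 CPM, and its range without library 6 was 1.36-fold. Abcg1, which passes cholesterol to lipoprotein particles, stood at 66.9, 64.8, 64.2, 68.6, 63.7 and 59.8 CPM, also lowest in library 6 but with a range of 1.15-fold. Nr1h2, which encodes the receptor LXR-beta, stood at 125, 126, 128, 95.8, 93.5 and 98.8 CPM, highest in library 3 and lowest in library 5. Mylip, an LXR target that marks lipoprotein receptors for degradation, stood at 8.82, 7.95, 7.83, 8.52, 8.74 and 7.84 CPM, with intervals that met. Stard4, a carrier of cholesterol between membranes, lay between 86.6 and 101 CPM. The 3 LXR targets among these, Abca1, Abcg1 and Mylip, were highest in libraries 3, 4 and 1, the last of which became library 5 with plain totals. Counting error leaves the highest library of each unresolved. For Abca1 and Abcg1 its interval met that of library 1, and for Mylip that of the lowest library. The 5 genes had a median deviation of 0.10, 0.06, -0.01, -0.05, -0.02 and -0.11 log2 units, a spread of 0.208, which was 0.0335 without library 1 and 0.0709 without library 6, and 0.106 with plain totals.

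Ratios of paired genes within a library do not depend on how libraries are scaled. Of 10 pairs, 9 had separate 95% intervals in the lowest and highest library, and the ratio of Fasn to Acaca did not, ranging 1.13-fold. Pairs of other genes were not examined, so no share over all genes stands beside this count. For the levels of single genes the same held for 85.0% of all genes averaging 1 CPM or more. In FPKM, Srebf1 over Srebf2 was 0.524, 0.580, 0.551, 0.615, 0.589 and 0.558, so Srebf2 led in every library. Insig1 over Insig2 was 2.13, 2.23, 2.21, 2.08, 2.19 and 2.66, with library 6 above the others. Scd2 exceeded Scd1 by 222-fold in library 1 and by 305-fold in library 6.

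The widest ranges belonged to pairs of the fatty acid branch. Elovl6 over Elovl5 was 0.164, 0.173, 0.140, 0.0895, 0.115 and 0.118, a 1.94-fold range with library 4 lowest. Fads1 over Fads2 was 1.74, 1.78, 2.06, 1.85, 1.51 and 1.07, a 1.91-fold range. Library 6 was lowest there, where both genes were high but Fads2 more so. Abca1 over Abcg1 was 0.147, 0.145, 0.162, 0.112, 0.120 and 0.0947, lowest in library 6. Hmgcs1 over Idi1 ranged 1.52-fold, Acss2 over Acly 1.25-fold and Sqle over Fdft1 1.20-fold.

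**Figure D4:**
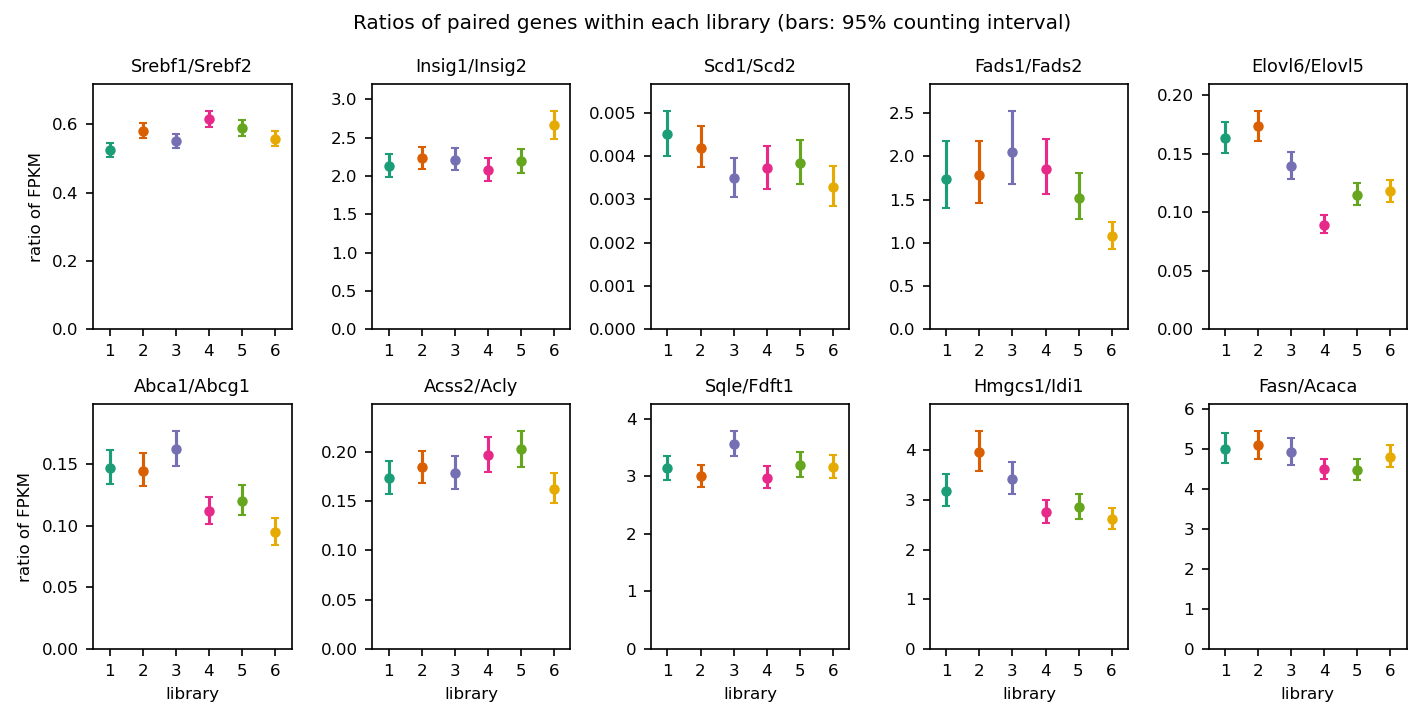
Ratio of FPKM of 10 gene pairs (each panel starts at 0) in libraries 1 to 6, with bars for the 95% counting interval. Fads1 over Fads2 and Abca1 over Abcg1 were lowest in library 6, and Elovl6 over Elovl5 in library 4.

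Other genes of the pathway were taken from 6 lists of 83 names, of which 71 reached a mean of 1 CPM. At 2-fold there were 5 of these, or 7.04%, against 10.5% of all genes, and at 1.5-fold 18, or 25.4%, against 27.6%, with a median range of 1.26-fold. The counts for single lists below stand beside the same 2 shares of all genes. The 1 such gene at 2-fold or more that averaged 10 CPM or more was Dgat1, an enzyme of the last step of triglyceride synthesis, at 45.4, 43.0, 43.0, 18.9, 17.5 and 16.4 CPM. The others at 2-fold or more were Dgat2, the second enzyme of that step, at 4.38 to 9.15 CPM, Acacb, the mitochondrial acetyl-CoA carboxylase, Elovl4, an elongase, and Scd4, a desaturase, all 3 under 5 CPM in each library. In each list the gene with the highest mean FPKM is named. Among 12 genes of sterol uptake and storage 0 ranged 2-fold, and Npc2, the lysosomal cholesterol carrier, led at 1079, 1087, 1068, 682, 677 and 679 CPM. Among the 11 genes of SREBP processing and sterol sensing 0 ranged 1.5-fold, and Lbr, a sterol reductase that is also the lamin B receptor, led at 167, 155, 163, 166, 162 and 169 CPM. Fnta, the shared subunit of protein prenyltransferases, led the isoprenoid list at 21.5 to 27.0 FPKM. Tecr, the reductase of fatty acid elongation, led the fatty acid list at 61.8 to 66.9 FPKM, where 3 of 17 measured genes ranged 2-fold. Hilpda, a lipid droplet protein, led the glycerolipid list at 362, 388, 373, 247, 257 and 255 CPM. Rxrb, a partner of the liver X receptors, led the list of LXR partners and oxysterol genes at 22.1 to 25.4 FPKM, in which 0 of 8 measured genes ranged 2-fold. Nr1h3, which encodes the other liver X receptor, lay between 1.38 and 2.32 CPM.

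Some members share sequence with other genes, so that their counts are uncertain. In the mouse annotation GENCODE M21, 10 of the 40 shared 3% or more of their 50-base windows with another gene. Acat2 shared 39.1% with Acat3, which was counted at 1.87 to 3.05 CPM. The pseudogenes and gene models Gm5182, Gm7049 and Gm13502 shared 29.2% of Acaca, 21.1% of Me1 and 17.7% of Idi1. Scd2 and Scd1 shared 2.65% of the windows of Scd2. Scd1 had 199 to 309 counts against 65256 to 83113 for Scd2. A small share of Scd2 reads counted for Scd1 would therefore weigh on the level and range of Scd1 and on their ratio. Exons of 7 members overlapped a gene on the opposite strand over 3% or more of their bases. Among them Fdft1 overlapped Ctsb, counted at 218 to 278 CPM, over 18.3% of its bases. On the same strand the gene model Gm43738 covered 26.7% of the exon bases of Fdps, and Vps51 12.1% of those of Tm7sf2. The strand setting is not given in the sources used here, and the part of such reads in the values was not tested.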

How the data were processed

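The RNA of these 6 mouse CD4+ T cell libraries was prepared with the VAHTS Universal V5 kit (labels' protocols). Named in the submitters' processing notes are fastp, HISAT2, HTSeq, R 3.2.0, DESeq2 and GRCm39, with neither order nor settings. The authors deposited raw counts per gene in 1 table and FPKM values in another, with a column for each library. FPKM as deposited equalled count over length and total within a relative 1.63e-06, so it is no separate evidence.

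Counts were scaled with TMM (edgeR 4.0.16, R 4.3.3), with factors from 0.958 to 1.04. Log2 CPM with a prior count of 2 gave the ranges, for genes averaging 1 CPM or more. Python 3.11.15, numpy 2.4.6, pandas 2.3.3, scipy 1.17.1 and matplotlib 3.10.9 were used. Intervals are exact Clopper-Pearson 95% intervals, and without molecular identifiers PCR copies are not independent molecules. The code was tested on simulated data. Since the labels state no treatment, libraries were neither grouped nor tested. The members and lists were chosen with earlier results of these data known. By rule, values in all 6 libraries are given for 26 members, namely 25 of known central roles whatever their values and the 1 other member ranging 1.5-fold or more. From each other list the rule takes the gene with the highest mean FPKM and any averaging 10 CPM or more that ranged 2-fold. The 6 values of Elovl5, Pmvk, Mvd and Hsd17b7, and the genes Dgat2, Acacb, Elovl4, Scd4, Nr1h3 and Hsd17b12, lie outside the rule and were chosen after their values were seen. Promoter windows and annotation are of GRCm38, matched by symbol, since no GRCm39 reference was used here. Also tried were size factors from DESeq2 1.42.0, plain totals, FPKM with a pseudocount of 0.1, a prior count of 0.5, a minimum of 5 CPM or none, the mean of list members, and each library left out in turn.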

Additional observations from a re-analysis of the deposited data

Results flagged for a closer look

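Both results below have 1 library far from the other 5, with a gap to the nearest library that takes a larger part of the whole range than Dixon's 95% critical value for 6 samples. The labels put the libraries in no group, so this describes 6 unlabelled samples. Fads2 in library 6 stood at 9.73 CPM, against 3.87 to 5.95 CPM in the other libraries, a gap of 0.645 of its range. Mvk in library 1 stood at 6.28 CPM, against 7.15 to 7.65 CPM in the others, a gap of 0.635, and its lowest and highest libraries had intervals that met. Of 40 members examined, 2 were past that mark, and chance passes about 1 set in 20.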

How the results depend on the processing

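No paired analysis was possible because the labels put no library in a group. The count of members ranging 2-fold or more was 2 with either other scaling and 1 with a minimum mean of 5 CPM, where Me1 is not counted. Leaving out 1 library at a time gave 1 to 2, the lower without library 6, which decides Fads2. The count at 1.5-fold was 8, and 4 to 8 when a library was left out, the lowest again without library 6. It was 6 with DESeq2 size factors and 10 with plain totals or FPKM. The spread of a role's median deviation over the libraries also moved. For acetyl-CoA, NADPH and fatty acid synthesis genes it was 0.0792 log2 units, but 0.245 with the minimum of 5 CPM and 0.264 when members were averaged, 0.152 with plain totals, and 0.0232 to 0.0792 with a library left out, at or under 0.0271 without library 1, 2, 3 or 4. For the SREBP system it was 0.222, and 0.0962 to 0.264 with a library left out, the lowest without library 2, and 0.135 with plain totals. For the efflux genes it was 0.208, and 0.0335 to 0.166, the lowest without library 1, and 0.0709 without library 6, or 0.106 with plain totals. The cause was not tested. Of 260 ranges of single members under the alternatives, 41 moved by more than their counting interval. Of the 26 members with a range followed here, 13 moved with plain totals. With FPKM, which rests on the same totals and is no separate evidence, 13 moved too. Plain totals moved the typical gene by 0.0624 log2 units in the library where that gene moved most, and gave 15 of the 40 members another highest or lowest library, against 4 with DESeq2 size factors. Depth limits the members with the fewest counts, Me1, Fads2, Tm7sf2 and Mvk.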

Other observations

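For each gene the widest gap among its 6 ordered values was located, which every gene has. Of the 40 members, 13, or 32.5%, had the widest gap in their ordered values between libraries 1, 2 and 3 on one side and libraries 4, 5 and 6 on the other, against 34.8% of all genes averaging 1 CPM or more and 39.5% of those averaging 10 CPM or more. Of the 34 members averaging 10 CPM or more, 13, or 38.2%, did so. The number was 12 of 40 with DESeq2 size factors, or 30.0% against 35.0% of all genes, and 11 with plain totals, or 27.5% against 38.8%. In 7 of the 13 the values of libraries 4, 5 and 6 were the higher ones, against 46.2% of all genes with that gap. With DESeq2 size factors 6 were higher and 6 lower, and with plain totals 7 and 4. The 7 were Scap, Idi1, Dhcr7, Acaca, Fasn, Elovl5 and Fads1, of which Elovl5 stood at 83.4, 84.3, 82.8, 97.6, 93.3 and 95.5 CPM. In the other 6, Insig2, Pmvk, Mvd, Hsd17b7, Scd2 and Nr1h2, they were the lower ones. Pmvk stood at 28.9, 30.6, 28.9, 25.7, 25.9 and 26.4 CPM, Mvd at 27.0, 26.6, 24.6, 21.5, 21.3 and 22.7 CPM and Hsd17b7 at 35.3, 35.0, 33.9, 27.8, 29.0 and 28.8 CPM. For Nr1h2 the gap took 76.4% of the range, for Acaca 73.1%, for Insig2 72.0% and for Scd2 70.5%. It took the smallest part for Mvd, at 34.0%, Idi1, at 30.0%, and Fads1, at 29.9%. For Mvd, Idi1, Fads1 and Pmvk the 95% intervals of the libraries next to the gap met, so counting error leaves their gap unresolved. Enzymes of 1 route lay on both sides, with Idi1 and Dhcr7 higher and Mvd, Pmvk and Hsd17b7 lower in libraries 4, 5 and 6. Of these, only Dhcr7 and Hsd17b7 had intervals that did not meet across the gap. Likewise Fasn and Acaca were higher and Scd2 lower, with intervals that did not meet. With plain totals Pmvk and Mvd no longer had their widest gap there, nor Idi1 with DESeq2 size factors. The B cell markers summed to 4.86, 5.58, 5.48, 8.17, 7.79 and 7.70 CPM and the 8 T cell markers to 3042, 2967, 2883, 2466, 2475 and 2532 CPM. Of the 8 T cell markers 7 had the same widest gap, but not in 1 direction. In 6 of them libraries 4, 5 and 6 were lower, among them Cd28 at 848, 786, 783, 524, 510 and 507 CPM. In the other, Cd4 itself, they were higher, at 436, 426, 412, 480, 475 and 482 CPM. The part of these cell types in the members' values was not tested. The labels do not say what sets these libraries apart, and no groups were formed from them.

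Library 6 was the highest library for 11 of the 40 members and the lowest for 5, while library 4 was the lowest for 13 and the highest for 4. Over all genes averaging 1 CPM or more, library 6 was the highest for 21.2% and the lowest for 15.6%. Library 4 was the lowest for 18.2% of them and the highest for 16.5%. With plain totals library 6 was the highest for 19 members and library 4 the lowest for 10, so these counts rest on the scaling. The shares over all genes were not counted with plain totals. Hsd17b12, an enzyme of fatty acid elongation, stood at 54.0, 57.7, 55.2, 60.5, 67.5 and 71.1 CPM, also highest in library 6, and was picked after its values were seen.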
